A study of Mus musculus with 6 samples.

Results

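The C/EBP genes encode a family of basic leucine zipper transcription factors, and its members Cebpa, Cebpb, Cebpd, Cebpe and Cebpg were followed by their symbols in RNA-seq of mouse myeloid progenitors. These 5 genes were among 34199 genes in the count files, and 5 of 5 passed the filter on low counts, as did 12460 genes in all. The cells were HOXA9-immortalized granulocyte-macrophage progenitors (iGMPs, labelled Lys-GFP-ER-HoxA9), which were derived from C57Bl/6 bone marrow and kept self-renewing by an estradiol-dependent HOXA9 fusion protein and stem cell factor. In every group the cells carried this fusion and a GFP reporter at the lysozyme locus, and were harvested at 24 h. In CAF-1 OFF, 500 µM IPTG induced a hairpin RNA against Chaf1b, which encodes part of the CAF-1 histone chaperone, in medium with 150 ng/ml estradiol. Control cells also received IPTG, at a dose the labels do not give. The paper's control for IPTG induction was a vector with a stuffer sequence, carried by other clones, and the labels do not name the vector. Hairpin and clone therefore cannot be told apart where CAF-1 OFF is compared with control. In HOXA9 OFF, estradiol was washed out, which inactivates the fusion protein, and the labels do not say whether IPTG was added or which clone was used, so estradiol and such differences cannot be told apart in comparisons with this group. Each group had 2 libraries. The study worked with clonal lines and examined RNA-seq of independent sub-clones at a later time. No source used here says which clone or culture each of these 24 h libraries came from, so p-values measure the spread between these libraries, which may be technical.

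C/EBP proteins bind DNA as homodimers or heterodimers with one another, so the relative amounts of the members matter as well as the level of each. C/EBPα is required for the formation of granulocyte-macrophage progenitors, C/EBPε for the late steps of granulocyte maturation including the secondary granule proteins, and C/EBPβ and C/EBPδ respond to cytokines and act in inflammation, emergency granulopoiesis and macrophages. C/EBPγ lacks a transactivation domain and can dampen the activity of its partners.

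Libraries held between 16773560 and 25170898 gene counts, with 16028 to 16531 genes detected. Levels are given in CPM, a gene's counts relative to the size of its library after scaling by the trimmed mean of M-values, with the SD over 2 libraries, and 3 counts corresponded to 0.118 to 0.182 CPM. Chaf1b, the hairpin target, stood at 17.8 and 12.1 CPM in CAF-1 OFF, against 89.9 and 105 CPM in control (log2 fold change -2.71 ± 0.20, SE, edgeR FDR 0.0198). This call was lost with the replicate block (-2.72, edgeR FDR 0.0562) and without CAF-1 OFF replicate 2, control replicate 1 or control replicate 2 (-2.45 to -2.81, edgeR FDR 0.0665, 0.142 and 0.135). Chaf1b was at 64.6 and 61.3 CPM in HOXA9 OFF (-0.63 ± 0.18 against control, edgeR FDR 0.0396), a call lost with the block and in each of the 4 fits without a library. The counts are listed by gene symbol and do not separate the HOXA9 fusion from Hoxa9 itself. On the log2 scale Hoxa9 counts lay 0.55 ± 0.17 above control in HOXA9 OFF (edgeR FDR 0.0535), and in CAF-1 OFF the difference was -0.047 ± 0.17 (edgeR FDR 0.95). The progenitor label was checked against 6 of 6 detected markers, led in control by Cd34 at 1800 ± 5.86 CPM, Kit at 626 ± 118 CPM and Flt3 at 283 ± 65 CPM. Summed macrophage markers stood between 24.8 and 47.8 CPM and lymphoid markers between 4.4 and 11.5 CPM in control, with Cd3e and Cd3g at no more than 3 counts in any library. Control sums were 749 to 1139 CPM for eosinophil, basophil and mast cell markers and 30.6 to 33.1 CPM for megakaryocyte and erythroid markers.

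In the GENCODE annotation of NCBIM37 (mm9), Cebpa is a single exon of 2634 bp on chromosome 7 (35904312 to 35906945, plus strand). Cebpg lies 62.8 kb away on the same chromosome (35831441 to 35841522, minus strand), with transcripts of 890 and 4639 bp. Cebpe has 2 exons on chromosome 14 (55329200 to 55331011, minus strand, 1238 bp of exon). Cebpd lies on chromosome 16 (15887379 to 15888559, plus strand) and carries a pseudogene tag in this annotation release, with 1180 bp of exon. Cebpb is a single exon of 1504 bp on chromosome 2 (167514415 to 167515918, plus strand), and 312 bp of it overlap an exon of Tmem189 on the opposite strand. The library kit was strand-specific, but the strand setting of the counting is not given in the sources used here, so whether reads of Cebpb and Tmem189 were separated in that stretch is not known.

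Upstream sequences are shown for 3 members found in the RefSeq promoter table (GRCm38.p6), to set the neighbours Cebpa and Cebpg beside Cebpb. Each is the 250 bases before the RefSeq start, 5′ to 3′ on the strand of the gene, and each matched 1 place in NCBIM37 exactly, namely chr7:35904062-35904311 for Cebpa, chr7:35841586-35841835 (minus strand) for Cebpg and chr2:167514165-167514414 for Cebpb. Capitals mark matches on either strand to 4 motifs, namely TTGCNNAA (a C/EBP core), CCGGAA (an ETS core), CCAAT (the CCAAT box) and TATAAA (the TATA box).

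Cebpa: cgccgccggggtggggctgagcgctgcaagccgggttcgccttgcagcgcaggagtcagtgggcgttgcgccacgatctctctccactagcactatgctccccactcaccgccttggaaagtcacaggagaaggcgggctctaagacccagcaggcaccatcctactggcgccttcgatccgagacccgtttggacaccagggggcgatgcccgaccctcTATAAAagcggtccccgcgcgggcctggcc

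Cebpg: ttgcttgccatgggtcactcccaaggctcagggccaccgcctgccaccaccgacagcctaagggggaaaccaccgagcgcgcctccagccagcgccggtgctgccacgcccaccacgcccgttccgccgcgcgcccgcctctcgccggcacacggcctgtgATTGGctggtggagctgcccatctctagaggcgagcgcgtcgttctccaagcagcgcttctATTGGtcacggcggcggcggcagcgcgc

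Cebpb: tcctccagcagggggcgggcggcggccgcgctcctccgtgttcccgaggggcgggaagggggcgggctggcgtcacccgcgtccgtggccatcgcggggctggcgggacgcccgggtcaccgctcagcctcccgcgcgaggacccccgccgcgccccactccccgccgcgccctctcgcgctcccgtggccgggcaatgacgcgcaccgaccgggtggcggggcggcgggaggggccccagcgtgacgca

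The Cebpa window held TATAAA, 30 bases upstream of the start, and the Cebpg window held CCAAT on the reverse strand, read as ATTGG, 89 and 28 bases upstream. No match overlapped another, and the Cebpb window had 0 matches to these letters. Of 32851 promoter windows of 250 bases, 12.4% held TATAAA, 33.8% CCAAT, 9.56% TTGCNNAA and 12% CCGGAA. The windows were rich in G and C, at 66.4% for Cebpa, 70.8% for Cebpg and 81.6% for Cebpb. A match is a description of the letters and not a measured binding site.

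In self-renewing control cells, the family was led by Cebpa and Cebpe. Levels of different genes were compared per kb of merged exon. Cebpa stood at 88.4 and 103 CPM per kb and Cebpe at 90.5 and 63 CPM per kb, so their libraries overlapped and their order was not resolved. Cebpb followed at 33.1 ± 5.16 CPM per kb, then Cebpg at 24.1 ± 3.59 and Cebpd at 12.3 ± 1.76 CPM per kb, with no overlap between neighbours in this order. The place of Cebpg depended on its transcript, because division by the 890 bp transcript gave 134 CPM per kb, above Cebpa. Over the 6 libraries, the mean CPM of Cebpa exceeded that of 94.3% of the tested genes and that of Cebpd 49.6%.

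**Figure D1:**
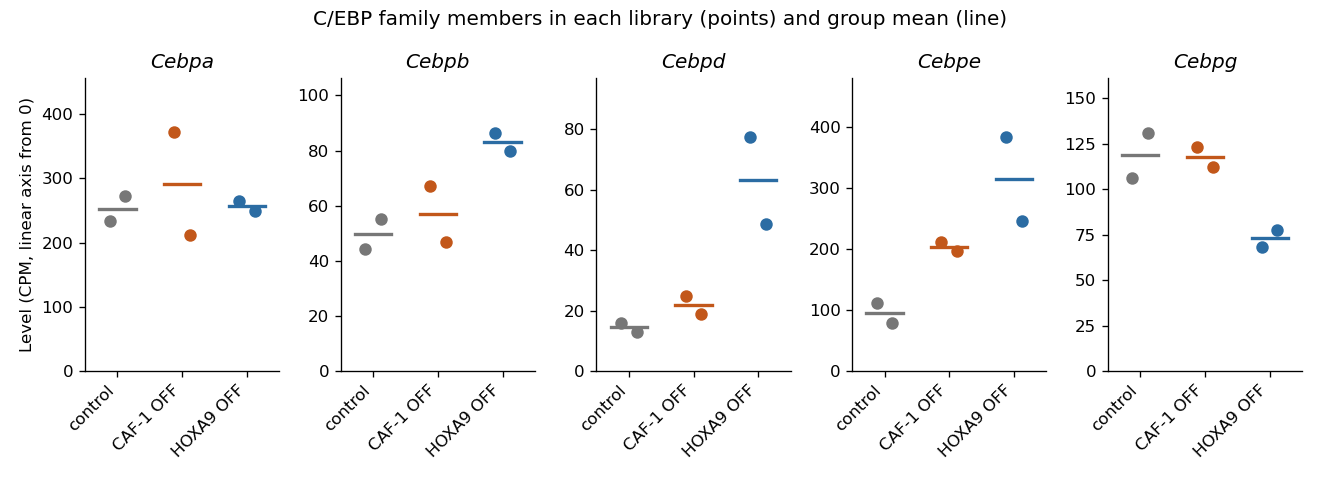
Level of each C/EBP gene in CPM (linear axes from 0, a separate scale for each gene) in each of the 3 groups. Points are libraries and lines are group means (n = 2). Both HOXA9 OFF libraries lay above the other 4 for Cebpb, Cebpd and Cebpe and below them for Cebpg, and the CAF-1 OFF libraries of Cebpe, at 212 and 197 CPM, lay between the control and HOXA9 OFF libraries.

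The first comparison addressed the C/EBP genes after 24 h of CAF-1 loss. Cebpe, the late granulocytic member, was at 212 and 197 CPM in CAF-1 OFF, against 112 and 78 CPM in control. Cebpd, a cytokine-responsive member, was at 24.9 and 18.8 CPM against 15.9 and 13 CPM. For these 2 genes both CAF-1 OFF libraries exceeded both controls, while the libraries of the other 3 overlapped. With calls requiring a change of 1.5-fold or more and an FDR under 0.05, the edgeR quasi-likelihood test called 0 of 5 members and 0.0321% of all genes. At these cutoffs the DESeq2 Wald test and the edgeR exact test each called 1 member, Cebpe, where they called 1.54% and 1.95% of all genes. Libraries did not overlap for 2 of 5 members, against 40.1% of all genes, and an unadjusted p under 0.05 was reached by 1 of 5 members, against 10.7% of all genes.

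Cebpe differed from control by a log2 fold change of 1.10 ± 0.24 (SE, 95% confidence interval 0.52 to 1.68), with an unadjusted p of 0.00296 and an edgeR FDR of 0.223. Its call depended on the test. It was called with the DESeq2 Wald test (adjusted p = 0.00144), with the edgeR exact test (FDR 0.00248) and without an expression filter (edgeR FDR 3.88e-06, where 1.9% of all genes were called), and over its alternatives the adjusted values ran from 3.88e-06 to 0.761. Cebpd differed by 0.59 ± 0.26 (interval -0.025 to 1.21, edgeR FDR 0.483), and by 0.38 to 0.78 in fits without a library.

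Cebpa, the member needed to form these progenitors, differed between the CAF-1 OFF libraries themselves. They were at 372 and 212 CPM, on either side of the controls at 233 and 272 CPM. The log2 difference of 0.21 ± 0.24 (interval -0.37 to 0.79, edgeR FDR 0.803) turned to -0.25 without CAF-1 OFF replicate 1. For Cebpb, 1 CAF-1 OFF library lay above the controls and the other between them, at 67.1 and 46.9 CPM in CAF-1 OFF against 44.3 and 55.3 CPM in control, with a log2 difference of 0.20 ± 0.19 (interval -0.26 to 0.66, edgeR FDR 0.768) that became -0.086 without that library. Cebpg was at 123 and 112 CPM against 106 and 131 CPM. Its interval of -0.34 to 0.32 on the log2 scale was the narrowest of the 5 members.

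The second comparison addressed the family 24 h after HOXA9 inactivation, the reference for differentiation toward neutrophils. Cebpd rose 4.35-fold, Cebpe 3.32-fold and Cebpb 1.67-fold, Cebpg fell by 0.71 on the log2 scale, and Cebpa was not called. The call was thus made for 4 of 5 members, 3 higher and 1 lower, where 22% of all genes were called, 13% higher and 8.97% lower. Libraries did not overlap for 4 of 5 members, against 71% of all genes.

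Cebpd was at 77.4 and 48.6 CPM in HOXA9 OFF, against 15.9 and 13 CPM in control (log2 fold change 2.12 ± 0.26, edgeR FDR 0.00229). Cebpe was at 385 and 247 CPM against 112 and 78 CPM (log2 fold change 1.73 ± 0.25, edgeR FDR 0.00372). HOXA9 OFF replicate 1 was the higher library for both genes, and without it the log2 fold changes were 1.74 for Cebpd and 1.38 for Cebpe, each still called. Cebpb was at 86.4 and 79.9 CPM against 44.3 and 55.3 CPM (log2 fold change 0.74 ± 0.19, edgeR FDR 0.0289). This call did not survive the loss of any 1 of the 4 libraries, with log2 fold changes of 0.58 to 0.91 and edgeR FDR values of 0.0576 to 0.147.

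Tmem189, the antisense neighbour of Cebpb, was at 40.3 ± 3.55 CPM in HOXA9 OFF and 28.8 ± 2.25 CPM in control, a log2 difference of 0.49 (edgeR FDR 0.0289) that lay under the fold minimum. The part of shared reads in either value was not tested.

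Cebpg, the member without a transactivation domain, was at 68.1 and 77.7 CPM in HOXA9 OFF and at 106 and 131 CPM in control (log2 fold change -0.71 ± 0.14, edgeR FDR 0.0114). The call was lost without control replicate 2 (-0.55, edgeR FDR 0.0681) and without HOXA9 OFF replicate 1 (-0.61, edgeR FDR 0.0778). Cebpa was at 265 and 250 CPM in HOXA9 OFF, within the control range of 233 to 272 CPM. Its log2 difference was 0.027 ± 0.24, with an interval of -0.55 to 0.61, and it was -0.055 when libraries were scaled by size alone.

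**Figure D2:**
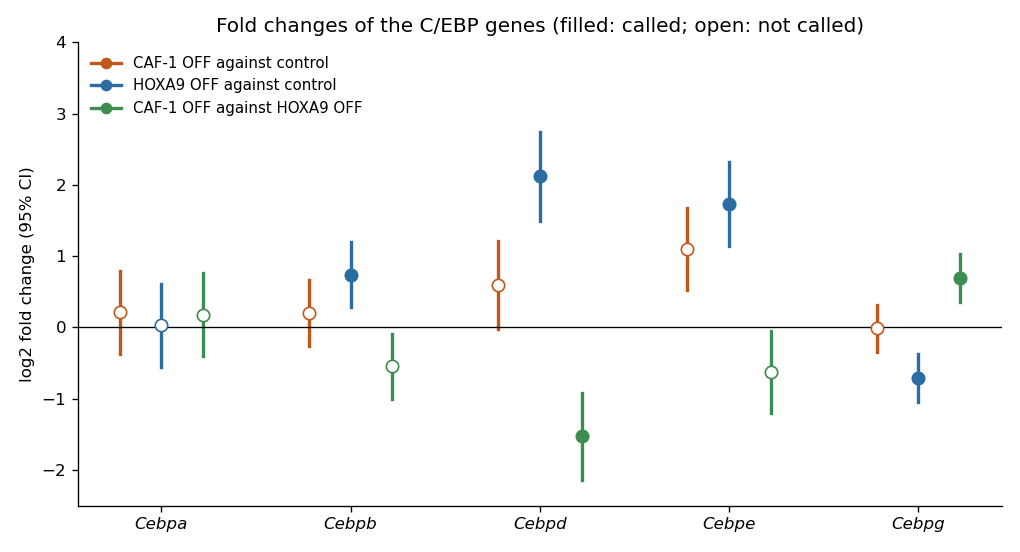
log2 fold changes (points) with 95% confidence intervals (lines) of the 5 C/EBP genes in 3 comparisons, from a quasi-likelihood fit to 6 libraries. Filled points were called and open points were not, and Cebpd shows the largest change of the family, 2.12 in HOXA9 OFF against control.

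CAF-1 OFF was then compared directly with HOXA9 OFF, which tests whether a member responded differently to the inductions, and which uses the same induced libraries as the comparisons above. Cebpd was lower in CAF-1 OFF, at 24.9 and 18.8 CPM against 77.4 and 48.6 CPM (log2 fold change -1.53 ± 0.26, edgeR FDR 0.00653). Cebpg was higher, at 123 and 112 CPM against 68.1 and 77.7 CPM (log2 fold change 0.69 ± 0.14, edgeR FDR 0.0128), a call lost without HOXA9 OFF replicate 1 (0.60, edgeR FDR 0.0832). The members called were thus 2 of 5, 1 higher and 1 lower, where 22.1% of all genes were called, 9.56% higher and 12.6% lower.

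Cebpe and Cebpb were also lower in both CAF-1 OFF libraries than in both HOXA9 OFF libraries, so that 4 of 5 members did not overlap, against 66.7% of all genes. Neither of this pair was called. The log2 difference was -0.63 ± 0.24 for Cebpe (interval -1.20 to -0.057, edgeR FDR 0.0925) and -0.54 ± 0.19 for Cebpb (interval -1.0 to -0.086, edgeR FDR 0.074). The Cebpe difference passed with the DESeq2 Wald test (adjusted p = 0.0403), the edgeR exact test (FDR 0.0435), no expression filter (edgeR FDR 0.00134) and the replicate block (edgeR FDR 0.0366), and without HOXA9 OFF replicate 2 (-0.91, edgeR FDR 0.0394). Without HOXA9 OFF replicate 1 it was -0.28. The Cebpb difference passed without CAF-1 OFF replicate 1 (-0.83, edgeR FDR 0.0259). Cebpa libraries overlapped, with a log2 difference of 0.18 ± 0.24.

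In both inductions each library had more Cebpe counts per Cebpa count than either control, a difference that was not tested. For each count of Cebpa there were 0.481 and 0.286 counts of Cebpe in control, 0.569 and 0.927 in CAF-1 OFF, and 1.45 and 0.989 in HOXA9 OFF. This ratio within a library needs no scaling between libraries, and the groups did not overlap. Between the CAF-1 OFF libraries Cebpa differed, at 372 and 212 CPM, while Cebpe was at 212 and 197 CPM. Per kb, Cebpe ranked above Cebpa in both inductions, at 165 ± 8.56 against 111 ± 42.8 CPM per kb in CAF-1 OFF and 255 ± 78.4 against 97.7 ± 4 CPM per kb in HOXA9 OFF. In HOXA9 OFF, Cebpd reached 53.4 ± 17.3 CPM per kb, beside Cebpb at 55.3 ± 3.06, and the libraries of these genes overlapped.

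Cebpe held 31.7 ± 7.79% of the summed level per kb of the family in control. This share was 53 ± 5.18% in HOXA9 OFF and 46.9 ± 6.31% in CAF-1 OFF. The share of Cebpa was 39.6 ± 4.69% in control, 20.9 ± 3.6% in HOXA9 OFF and 30.5 ± 6.35% in CAF-1 OFF. The summed level was 243 and 241 CPM per kb in control, 403 and 309 in CAF-1 OFF, and 548 and 405 in HOXA9 OFF. These shares use merged exons, and a shorter Cebpg transcript would lower the shares of the others.

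**Figure D3:**
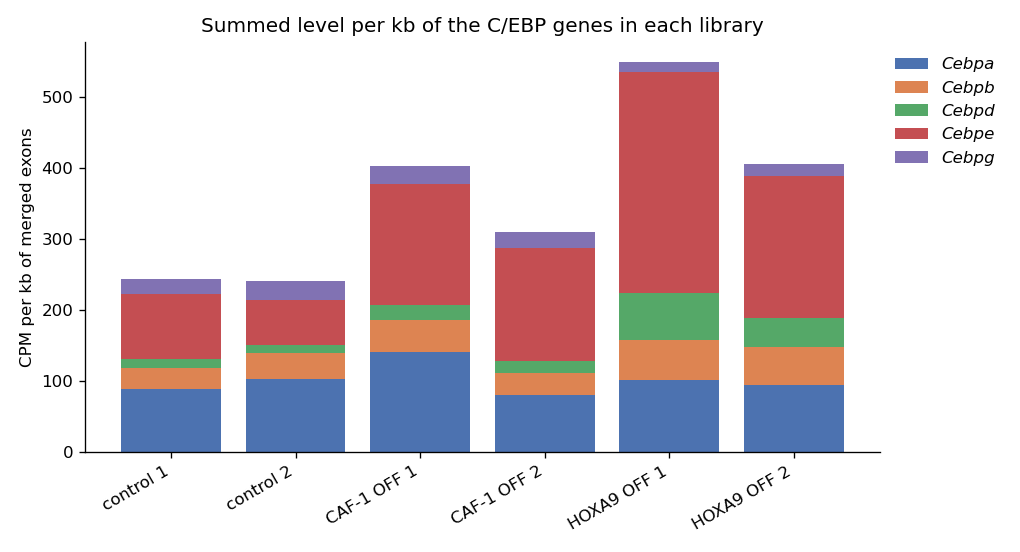
Summed level of the C/EBP genes in each library, in CPM per kb of merged exons (linear axis from 0), stacked by gene. The Cebpe segment is higher in the CAF-1 OFF libraries, at 171 and 159 CPM per kb, and the HOXA9 OFF libraries, at 311 and 199.8 CPM per kb, than in control, at 90.5 and 63 CPM per kb.

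Marker genes of other cell types moved in the same libraries. Summed progenitor markers were at 1242 to 1292 CPM in HOXA9 OFF, against 2994 to 3075 CPM in control and 2988 to 3374 CPM in CAF-1 OFF, with 4 of 6 called lower and 1 higher in HOXA9 OFF against control. Of all genes, 8.97% were called lower and 13% higher in that comparison. Summed macrophage markers were at 205 to 211 CPM in HOXA9 OFF, against 24.8 to 47.8 CPM in control and 32.8 to 53.8 CPM in CAF-1 OFF (3 of 4 tested called higher in HOXA9 OFF). Summed eosinophil, basophil and mast cell markers were at 4001 to 5398 CPM in HOXA9 OFF, 749 to 1139 CPM in control and 1213 to 1734 CPM in CAF-1 OFF (2 of 5 tested called higher in HOXA9 OFF), with Fcer1a at no more than 3 counts in any library. Most of this sum was Prg2, at 4241 ± 966 CPM in HOXA9 OFF and 757 ± 248 CPM in control. Prg2 and Epx were called there, while Mcpt8 (log2 difference -0.52), Cpa3 (0.75) and Ms4a2 (0.47) were not. Megakaryocyte and erythroid markers summed to 82.8 to 87.9 CPM in HOXA9 OFF (2 of 6 called higher), against 30.6 to 33.1 CPM in control and 40.5 to 84.6 CPM in CAF-1 OFF, and lymphoid markers to at most 11.5 CPM in any library (2 of 4 tested called lower in HOXA9 OFF). Against control, the edgeR quasi-likelihood test called 0 of 25 tested markers in CAF-1 OFF, where 6 had an unadjusted p under 0.05 (0.0321% and 10.7% of all genes), while the DESeq2 Wald test called 2 and the edgeR exact test 3 (1.54% and 1.95% of all genes). In bulk RNA, a change in the number of cells of a type and a change in RNA per cell cannot be told apart, and the part of cell mixture in the C/EBP values was not tested.

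Genes linked to C/EBP factors were examined as 6 lists of partners, regulators and known targets, with 62 of 65 genes tested. In HOXA9 OFF against control, 28 were called higher and 9 lower, or 59.7% of those tested against 22% of all genes. In CAF-1 OFF against control, 0 of 62 were called by the edgeR quasi-likelihood test, although 21 of 62 had an unadjusted p under 0.05, against 0.0321% and 10.7% of all genes. Called genes numbered 6 with the DESeq2 Wald test, 7 with the edgeR exact test and 12 without an expression filter, where these called 1.54%, 1.95% and 1.9% of all genes. Chi3l3, Fcnb, Hlf, Id1, Mmp8 and Ms4a3 were called in all 3 of these. In CAF-1 OFF against HOXA9 OFF, 9 of 62 were called higher and 22 lower, against 9.56% and 12.6% of all genes.

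Among 8 negative regulators of C/EBP proteins, 2 were called higher and 2 lower in HOXA9 OFF (13% and 8.97% of all genes). Trib2 and Trib3 belong to the Tribbles pseudokinases, of which Trib2 promotes degradation of C/EBPα. Trib2 was at 0.0482 and 1.33 CPM in HOXA9 OFF and at 15.5 and 14.9 CPM in control (log2 fold change -4.57 ± 0.77, edgeR FDR 0.00662), the first of these being 1 count. It was at 58.7 and 29.3 CPM in CAF-1 OFF (1.53 ± 0.56 against control, edgeR FDR 0.406). Trib3 was at 15.3 and 48.5 CPM in HOXA9 OFF against 83.3 and 165 CPM (edgeR FDR 0.0324), a call lost without control replicate 2 or HOXA9 OFF replicate 1. In CAF-1 OFF, Trib3 was at 42.2 and 41.4 CPM (-1.57 ± 0.52 against control, edgeR FDR 0.363). Id1 and Id2, which encode inhibitors of helix-loop-helix factors, rose by 1.72 ± 0.23 and 3.31 ± 0.33 (edgeR FDR 0.00284 and 0.00124). In CAF-1 OFF the log2 difference was 0.92 ± 0.23 for Id1, called by the DESeq2 Wald and edgeR exact tests but not by the quasi-likelihood test (edgeR FDR 0.259), and 0.35 ± 0.33 for Id2 (edgeR FDR 0.762).

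Of the 11 tested relatives and partners with a basic leucine zipper or a C/EBP name, 1 was called in HOXA9 OFF (9.09%, against 22% of all genes). This was Hlf, a progenitor factor of the PAR family, at 19.7 and 23.2 CPM against 264 and 245 CPM in control (log2 fold change -3.57 ± 0.15, edgeR FDR 0.000102). Hlf was at 432 and 358 CPM in CAF-1 OFF (0.64 ± 0.13 against control, edgeR FDR 0.199). The other 10 were not called, and the list median of the log2 difference from control was -0.38 over the 11. The count was 2 without control replicate 1, HOXA9 OFF replicate 1 or HOXA9 OFF replicate 2 (14 to 17.2% of all genes). It was also 2 with library size alone, the DESeq2 Wald test, the edgeR exact test, a fit to the 4 libraries compared and the replicate block (21.5 to 24% of all genes), and it was 4 without a filter (16.2% of all genes).

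Upstream regulators of myeloid differentiation were called higher for 6 and lower for 3 of 13 in HOXA9 OFF (13% and 8.97% of all genes). Sfpi1, which encodes PU.1, averaged 499 ± 84.9 CPM, against 171 ± 23 CPM in control (log2 fold change 1.55 ± 0.17, edgeR FDR 0.00162). Runx1, a regulator of Cebpa, averaged 113 ± 3.39 CPM, against 40.5 ± 2.04 CPM (1.48 ± 0.13, edgeR FDR 0.000946). Irf8, a monocytic regulator, rose from 31.2 ± 6.18 to 176 ± 1.93 CPM, and Rara, the retinoic acid receptor alpha gene, from 2.26 ± 0.748 to 12.9 ± 2.63 CPM (edgeR FDR 0.00605 and 0.00464). In CAF-1 OFF the list had a median log2 difference from control of 0.15, and the Irf8 libraries were at 32.9 and 86 CPM.

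Early myeloid targets were called higher for 7 and lower for 1 of 11 in HOXA9 OFF (13% and 8.97% of all genes). Their median log2 fold change was 1.43, where the median over all genes was -0.0035. Csf1r, the receptor of macrophage colony-stimulating factor, was at 215 and 292 CPM against 4.04 and 4.24 CPM in control (5.94 ± 0.26, edgeR FDR 0.000103), and at 4.78 and 7.14 CPM in CAF-1 OFF. Fcnb, a ficolin of granulocytes, was at 219 and 129.7 CPM in HOXA9 OFF, against 36.4 and 23.5 CPM in control and 79.2 and 64.8 CPM after CAF-1 loss. It was called in HOXA9 OFF (2.54 ± 0.31, edgeR FDR 0.00219) and not by the same test in CAF-1 OFF (1.26 ± 0.30, edgeR quasi-likelihood FDR 0.249), where the DESeq2 Wald and edgeR exact tests called it. Il6ra, the interleukin 6 receptor gene, was higher in HOXA9 OFF by 2.19 ± 0.45 (edgeR FDR 0.0127), a call lost without control replicate 2 or HOXA9 OFF replicate 1. Lyz1, a lysozyme gene, was at 13 and 44.5 CPM in HOXA9 OFF against 0.0785 and 0.406 CPM in control. Its near-identical copy Lyz2 had 4 counts in each HOXA9 OFF library and 0 in the other libraries. Reads shared by copies were dropped and the cells carried a GFP reporter at the lysozyme locus, so the values of both are uncertain. The part of either in these counts was not tested.

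Secondary and tertiary granule targets include genes that C/EBPε is known to control. In HOXA9 OFF, 9 of 10 were called higher, against 13% of all genes, with a median log2 fold change of 3.61. Camp, the cathelicidin gene, was at 38.4 and 19.2 CPM in HOXA9 OFF against 0.393 and 0.348 CPM in control (6.25 ± 0.48, edgeR FDR 0.000561). Ltf, the lactoferrin gene, was at 31.9 and 17.1 CPM against 0.471 and 0.174 CPM (6.13 ± 0.59, edgeR FDR 0.00114). Ngp, the neutrophilic granule protein gene, was at 61.4 and 36.4 CPM against 1.53 and 1.51 CPM (5.0 ± 0.54, edgeR FDR 0.0016). Chi3l3, a chitinase-like gene with close copies, was at 2834 and 1568 CPM against 15.8 and 5.63 CPM (7.65 ± 0.58, edgeR FDR 0.000561).

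In CAF-1 OFF, these granule genes had a median log2 difference from control of 0.99, where the median over all genes was -0.0044. The difference was positive for 10 of 10, against 49.2% of all genes. Both CAF-1 OFF libraries exceeded both controls for 8 of 10, where 40.1% of all genes did not overlap in either direction, and 4 of 10 had an unadjusted p under 0.05, against 10.7% of all genes. The upward lean was not limited to this list. Early myeloid targets had a median of 0.53, with 9 positive and 2 negative differences. The basic leucine zipper list had 5 positive and 6 negative. Over all 62 linked genes, 49 were positive and 13 negative. Some granule genes had few reads. Camp had 11 and 18 counts after CAF-1 loss, beside 10 and 6 for the control libraries. Ltf had 25 and 11, beside control counts of 12 and 3. Camp stood at 0.571 and 0.911 CPM, Ltf at 1.3 and 0.557 CPM, Ngp at 6.65 and 2.28 CPM and Chi3l3 at 46.4 and 63.6 CPM, each below both HOXA9 OFF libraries, and each of these 4 was called lower in the direct comparison (log2 fold changes of -5.27, -4.72, -3.46 and -5.32). Mmp8, the neutrophil collagenase gene, was named after its values were seen. It was at 332 and 629.8 CPM in CAF-1 OFF, against 70.1 and 40.4 CPM in control and 56.6 and 61.9 CPM in HOXA9 OFF. Its log2 difference from control was 3.12 ± 0.37 after CAF-1 loss (edgeR FDR 0.0757) and 0.10 ± 0.35 in HOXA9 OFF, and the direct comparison called it higher after CAF-1 loss (3.02 ± 0.37, edgeR FDR 0.00235).

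Inflammatory targets are genes that C/EBPβ and C/EBPδ are known to activate. In HOXA9 OFF, 4 of 9 were called higher and 2 lower, against 13% and 8.97% of all genes. The higher calls numbered 2 without control replicate 1 or HOXA9 OFF replicate 1, and 1 without control replicate 2 or HOXA9 OFF replicate 2. Each of the 4 averaged under 5 CPM over the 6 libraries. Il1rn, the interleukin 1 receptor antagonist gene, named after its values were seen, had the largest rise, at 11.5 and 14.4 CPM against 0.667 and 0.406 CPM in control (log2 fold change 4.54 ± 0.34, edgeR FDR 0.000552). Those lower were Il6, at 1.4 and 3.15 CPM against 8.6 and 10.6 CPM in control (log2 fold change -2.09 ± 0.39, edgeR FDR 0.0094), and Clec4e, a C-type lectin gene, at 35.4 and 58 CPM against 112 and 112 CPM (-1.27 ± 0.25, edgeR FDR 0.0108). In CAF-1 OFF, Il6 was at 7.94 and 6.38 CPM and Clec4e at 122 and 89.5 CPM. The list median of the log2 difference from control was 1.71 in HOXA9 OFF and 0.74 in CAF-1 OFF.

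**Figure D4:**
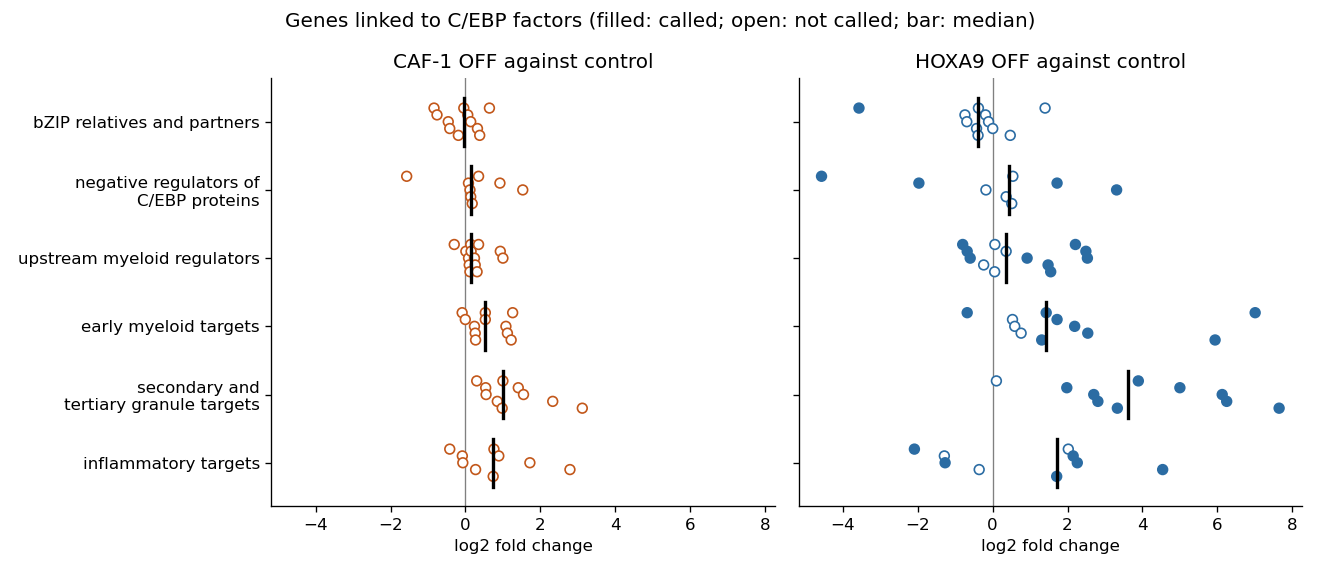
log2 fold changes of 62 genes in 6 lists linked to C/EBP factors, in CAF-1 OFF (left) and HOXA9 OFF (right) against the same control libraries. Each circle is a gene, filled where called, and bars are list medians. The granule targets have medians of 3.61 in HOXA9 OFF and 0.99 after CAF-1 loss.

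Genes with the profile most like that of each called member were ranked by the root mean square distance between log2 CPM values centred over the 6 libraries, among 9613 genes with a mean of at least 5 CPM. These points share libraries and group differences, and the distances are descriptions. Nearest to Cebpe were Nrg1, Cldn15, Ms4a3, Ikzf2 and Clec12a, at distances of 0.15 to 0.202. Ms4a3, a marker of granulocyte-macrophage progenitors that is also in the early target list, differed from control by 1.08 after CAF-1 loss (edgeR FDR 0.238) and 1.31 in HOXA9 OFF (edgeR FDR 0.00994), beside 1.10 and 1.73 for Cebpe. Nearest to Cebpd were B230208H11Rik, C130050O18Rik, Prg3, Gm14005 and Ltb4r1, at 0.121 to 0.171. Prg3, an eosinophil granule protein gene, differed by 2.25 in HOXA9 OFF and 0.57 after CAF-1 loss (edgeR FDR 0.000437 and 0.279), beside 2.12 and 0.59 for Cebpd.

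Cebpd and Cebpe lay at a distance of 0.387 from each other, where Cebpe ranked 181 of the 9613 genes in likeness to Cebpd and Cebpd 114 in likeness to Cebpe. Of the member pairs, Cebpa and Cebpb had the smallest distance, at 0.343, but Cebpa ranked only 2690 in likeness to Cebpb. Cebpg and Cebpd were farthest apart, at 1.24, with Cebpd ranked 9332 in likeness to Cebpg. Nearest to Cebpb were Cdk2ap2, Cdk5r1, Ethe1, 0610007C21Rik and Nudt7, at 0.0832 to 0.0924. Nearest to Cebpg were Pik3r2, Tufm, Cbx1, Mrps22 and Rpl12, at 0.0323 to 0.056, among them genes for a mitochondrial elongation factor (Tufm), a mitochondrial ribosomal protein (Mrps22) and a cytoplasmic ribosomal protein (Rpl12).

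Neighbouring genes within 100 kb of a member were described in the same fit. Slc7a8, an amino acid transporter gene whose start lies 69.7 kb from that of Cebpe, was at 37.4 and 34.4 CPM in HOXA9 OFF, against 8.64 and 8.06 CPM in control and 20.7 and 13.8 CPM after CAF-1 loss. Its log2 fold change was 2.10 in HOXA9 OFF (edgeR FDR 0.00137), and CAF-1 OFF gave 1.04 (edgeR FDR 0.193), beside 1.73 and 1.10 for Cebpe. 1700123O20Rik, 26 kb from Cebpe, was called higher in HOXA9 OFF (0.80, edgeR FDR 0.0128), a call kept in 1 of 4 fits without a library. Acin1, which lies between Cebpe and that gene by start position and was named after its values were seen, was at 334 ± 4.48 CPM in HOXA9 OFF and 306 ± 11.7 CPM in control. Near Cebpd, Mzt2 at 23.9 kb lay higher after CAF-1 loss than in HOXA9 OFF (log2 difference 0.64, edgeR FDR 0.0405, kept in 1 of 4 fits without a library and lost with the replicate block), the opposite sign to Cebpd. Cebpa and Cebpg, with starts 62.8 kb apart, differed in HOXA9 OFF against control by 0.027 and -0.71, and a difference between these values was not tested.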

How the data were processed

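RNA was extracted with a Qiagen RNeasy kit and libraries were made with a strand-specific NEB kit (NEBNext UltraDirectional). The authors aligned reads to mm9 with STAR and counted them with HTSeq, and the deposited values are unnormalized counts of reads, listed by gene symbol. The counting annotation and strand setting are not given in the sources used here. Reads with several alignments (89.59 to 106.7 alignments per 100 gene counts) and 4 other tally lines (no feature, ambiguous, low quality and not aligned) were kept out of library sizes. HTSeq drops reads shared by genes, so near-identical copies are under-counted.

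Tests used edgeR 4.0.16 and limma 3.58.1 (R 4.3.3) on 12460 genes kept by filterByExpr, with TMM factors of 0.954 to 1.03 and a quasi-likelihood fit of 1 mean per group to all 6 libraries. Calls needed a change of 1.5-fold or more with a Benjamini-Hochberg FDR under 0.05 over all genes tested. Standard errors came from the F statistic. Floors of 3 counts cover counting error only, because PCR copies are not independent molecules.

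The members and gene lists were chosen with earlier results of these data known. The genes named are the members, Chaf1b and Hoxa9, up to 4 called genes of each linked list with the largest change in HOXA9 OFF at a mean of at least 5 CPM, the 5 genes nearest in profile to each called member, and called neighbours within 100 kb. Cell type markers are named beside these. Others are marked as named after their values were seen, and Tmem189 was named for its overlap with Cebpb. Of the file symbols, 97.1% were found in the annotation. Alternatives were the DESeq2 (1.42.0) Wald and edgeR exact tests, DESeq2 size factors, unscaled library sizes, no filter, a mean of at least 5 CPM, a fit to the 4 libraries compared, a replicate block, other cutoffs and leaving out each library.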

Additional observations from a re-analysis of the deposited data

Results flagged for a closer look

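The direct comparison of CAF-1 OFF with HOXA9 OFF is also the test of whether a member responded differently to the inductions, since the control terms cancel, and 2 of 5 members passed it, where 22.1% of all genes did. Cebpd differed by -1.53 on the log2 scale (edgeR FDR 0.00653), after differences from control of 2.12 in HOXA9 OFF and 0.59 in CAF-1 OFF, and was lower in both CAF-1 OFF libraries than in both HOXA9 OFF libraries. Cebpg differed by 0.69 (edgeR FDR 0.0128), after -0.71 in HOXA9 OFF and -0.013 in CAF-1 OFF, and was higher in both CAF-1 OFF libraries. The Cebpg call was lost without HOXA9 OFF replicate 1. Groups of 2 libraries are too small to test for an outlying library.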

How the results depend on the processing

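In HOXA9 OFF against control, Cebpd and Cebpe kept their calls in all 4 fits without a library and in the 9 other alternatives, while Cebpb kept it in 0 and Cebpg in 2 of the 4 fits without a library and both in the 9 others. Members called numbered 2 at a fold of 2 and an FDR under 0.01 (7.92% of all genes) and 2 to 3 without a library (12.8 to 17.2% of all genes, against 22% with all libraries). In CAF-1 OFF against control, 1 member (Cebpe) was called with the DESeq2 Wald test, with the edgeR exact test and without a filter, and 0 without any library. In the direct comparison, 1 was called at the stricter cutoffs (7.61% of all genes) and 1 to 3 without a library (13.8 to 21.9%), against 2 (22.1%) in the main analysis. Genes of the linked lists called in CAF-1 OFF against control numbered 6 with the DESeq2 Wald test, 7 with the exact test, 12 without a filter, 3 with a crossed block (Chi3l3, Elane and Mmp8), 1 at an FDR under 0.1 (Mmp8) and 0 to 1 without a library (Mmp8, without CAF-1 OFF replicate 1). At the stricter cutoffs they numbered 24 in HOXA9 OFF against control and 19 in the direct comparison, against 30 to 36 and 25 to 29 without a library. Over all genes, calls in CAF-1 OFF against control numbered 4 in the main analysis, 192 with DESeq2, 243 with the exact test and 378 without a filter, and they numbered 9 with an adjusted-deviance fit added after the data were seen. Causes of these differences were not tested.

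The Cebpa difference in HOXA9 OFF was -0.055 with library size alone. Without a library, log2 differences from control in CAF-1 OFF ran from -0.25 to 0.56 for Cebpa, -0.086 to 0.43 for Cebpb, -0.15 to 0.15 for Cebpg and -0.26 to 0.15 for Hoxa9. They ran from -0.086 to 0.14 for Cebpa and from -0.24 to 0.55 for Mmp8 in HOXA9 OFF, and from -0.28 to 0.53 for Cebpa in the direct comparison. The Chaf1b call in CAF-1 OFF was kept in 1 of 4 such fits (log2 fold changes of -3.01 to -2.45), and it was lost with the replicate block (edgeR FDR 0.0562). Trib2 in HOXA9 OFF ran from -8.13 to -3.51. A fit without a library assumes that the lone library left in its group varies like the other groups. Of 1103 values of other named genes under alternatives, 1009 kept their direction and side of the threshold, 77 lost and 14 gained a call, and 3 changed sign.

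Replicate numbers are shared by the groups, but no source says that they mark a shared culture, and deviations of same-numbered libraries correlated across genes at -0.178 for CAF-1 OFF and control, 0.456 for HOXA9 OFF and control, and 0.0329 for CAF-1 OFF and HOXA9 OFF. With the replicate block, members called numbered 4 in HOXA9 OFF and 0 in CAF-1 OFF against control, and 3 in the direct comparison (21.5%, 0.0161% and 21.5% of all genes), where Cebpe gained a call. A crossed block, chosen after the data were seen, gave 0 members in CAF-1 OFF against control and 3 in the direct comparison, with 71 and 3030 calls over all genes.

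With 2 libraries per group, absence of a call does not show equal levels.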
